A study of Mus musculus with 52 samples.

Results

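Ribosomal protein genes were followed here through 8 lists of ChIP-seq peaks, and 75 members were found among the 20807 protein-coding genes of chromosomes 1 to 19. A gene was a member if its symbol was Rpl, Rps or Rplp followed by a number and at most a letter, so that pseudogenes and the Rps6k kinases stayed out. Of the 75 members, 46 encode large subunit proteins, 3 of these being the P stalk proteins Rplp0, Rplp1 and Rplp2, and 29 encode small subunit proteins. The symbol rule uses no measured value, but the members were chosen with earlier results of these data known. The cells were clonal female mouse embryonic fibroblasts (MEFs) from F2 embryos of a cross between M.m.domesticus (FVB) and M.m.Castaneus, and all groups shared this background, with autosomes that are mosaics of both strains. The wt cells (clone Wt2A1) carry intact SmcHD1. The mut cells (clone Mut5A6) lack SmcHD1 from the germline through the MommeD1 mutation, and the somKO cells (clones A3-3 and D4) lost it in culture through CRISPR. The somKO clones were made in another wt line than Wt2A1, which carries an extra FVB allele, so that genotype and clone cannot be told apart. SmcHD1 is a non-canonical SMC protein that was profiled in wt and mut, whereas CTCF and Rad21, a cohesin subunit, were profiled in wt, mut and somKO.

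Ribosomal proteins are made in equimolar amounts for every ribosome, and their genes are short, highly transcribed in nearly every cell and scattered over the genome. Many start within a run of pyrimidines that the messenger RNA keeps at its 5′ end and that couples translation to growth signals. CTCF binds DNA through a long motif and stops cohesin, which extrudes chromatin loops, and cohesin is also loaded at active promoters. The files analysed here hold peaks only, so that neither expression nor signal strength at these genes was measured.

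Each list was called by the authors on reads merged from 2 to 4 ChIP libraries, and the lists held 6993 and 244 SmcHD1 peaks in wt and mut, 57798 to 69736 CTCF peaks and 66031 to 89974 Rad21 peaks. With 1 list a group there is no replicate spread, and no difference below was tested. The intervals in parentheses are 95% Wilson intervals over genes or peaks and cover counting error only. The lists carry no read counts, so that depth is unknown, and the score of a peak was used only as its percentile within its own list, where 100 is the most significant peak. A promoter peak overlaps the 1 kb on either side of the 5′ end of the gene record in GENCODE M21 by at least 1 bp, and a gene-body peak lies in the rest of the gene. Coordinates are those of the mm10 (GRCm38) build.

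The promoters of the members were mostly CpG-rich, 63 of 75 (84.0%) against 45.6% of the other 20732 genes, where CpG-rich means at least 50% GC and a CpG ratio of at least 0.6 over the 500 bp on either side of the 5′ end. The 9448 other genes with such promoters are therefore given as a further comparison beside the whole, together with 78 mitochondrial ribosomal protein genes. The members were also short, with a median length of 3368 bp against 17744 bp. Ribosomal protein genes have many processed pseudogenes, and a median of 16.1% of the 50-base words in their exons occurred again elsewhere in the genome, whereas this was 4.86% in the promoter windows and 0% in the introns. In 15 members another protein-coding gene started within 1 kb, as at Rps28 beside Ndufa7 and Rpl3 beside Syngr1, so that a promoter peak there belongs to both.

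Sequences of 2 kinds are shown because they mark these genes and their CTCF peaks. The first is the pyrimidine tract at the start, read from the RefSeq promoters of GRCm38.p6, which matched 55 of the members. CTTTCC on the strand of the gene lay within 50 bases of the 5′ end of 12 of 75 members (16.0%, 9.40 to 25.9) and of 4.31% of the other genes. The stretches below run from 50 bases before the RefSeq start to 20 after it, 5′ to 3′ on the strand of the gene, with the CTTTCC in capitals. Rpl28 lies at chr7:4792915-4792984 on the plus strand, Rpl38 at chr11:114668530-114668599 on the plus strand, Rps27 at chr3:90213629-90213698 on the minus strand and Rps10 at chr17:27635225-27635294 on the minus strand.
Rpl28: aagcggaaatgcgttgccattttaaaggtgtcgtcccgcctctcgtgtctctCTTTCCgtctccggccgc
Rpl38: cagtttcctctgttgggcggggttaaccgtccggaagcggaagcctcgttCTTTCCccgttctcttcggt
Rps27: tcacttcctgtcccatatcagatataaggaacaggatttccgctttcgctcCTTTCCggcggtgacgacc
Rps10: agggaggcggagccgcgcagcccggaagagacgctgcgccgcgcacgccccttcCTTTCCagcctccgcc

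In each of the stretches shown the tract straddles or adjoins the start, but this followed from how they were chosen. They were taken from the 9 of 55 matched members with CTTTCC at the RefSeq start, so that its position there is not a finding. In the 300 bases from 250 before to 50 after the gene record's 5′ end, searched on both strands, CCGGAAG, the core bound by ETS factors, occurred in 21 members (28.0%, 19.1 to 39.0) and 11.0% of the other genes. AAGATGG, the core bound by YY1, occurred in 9 members (12%, 6.44 to 21.3) and 6.22% of the others. These letters say nothing of whether a factor was bound.

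The second kind is the CTCF core in promoter peaks. The 12-base core consensus was searched on both strands with up to 1 mismatch, a tolerance chosen after an exact search had found few matches. Among the CTCF peaks of wt that met a CTCF peak in both other genotypes, 19 members held a match within the sequence kept around the gene. Of these, 2 were exact and 17 had 1 mismatch, and 14 of the 19 lay upstream of the 5′ end. The long wt peak of Rpl7a also held a match with 1 mismatch. The match nearest its midpoint lay outside the kept sequence, so it is not among the 19. A few of the strongest and 2 of a recurring kind are shown with 14 bases on either side, 5′ to 3′ in the direction of the motif, with the core in capitals. None of these stretches overlaps an annotated exon. They lie at chr5:115559276-115559315 (Rplp0, plus strand), chr5:107900451-107900490 (Rpl5, plus), chr17:56613314-56613353 (Rpl36, plus), chr15:5116477-5116516 (Rpl37, minus), chr6:115809828-115809867 (Rpl32, plus) and chr4:136054104-136054143 (Rpl11, minus).
Rplp0: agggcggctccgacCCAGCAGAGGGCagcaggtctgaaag
Rpl5: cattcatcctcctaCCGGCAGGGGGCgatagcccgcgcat
Rpl36: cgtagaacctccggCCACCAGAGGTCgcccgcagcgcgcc
Rpl37: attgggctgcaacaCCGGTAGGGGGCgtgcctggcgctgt
Rpl32: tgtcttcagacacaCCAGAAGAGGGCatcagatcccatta
Rpl11: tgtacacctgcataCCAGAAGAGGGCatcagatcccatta

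The Rplp0 match is exact. The last 2 share all letters of the core and the 4 bases after it, as did 5 of the 19 matches, those of Rpl13 and Rps2 included. Mouse B2 repeats are known to carry CTCF motifs, but no repeat annotation was used here. The wt CTCF peaks over these 5 matches had a median percentile of 67.2 and those over the other 14 matches 94.6.

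CTCF was listed at the promoter of about the same share of ribosomal protein genes as of other CpG-rich promoters, but its peaks at the members ranked higher. In wt 35 of 75 members had a CTCF promoter peak (46.7%, 35.8 to 57.8), in mut 43 (57.3%, 46.1 to 67.9) and in somKO 35 (46.7%, 35.8 to 57.8). Over all other protein-coding genes the shares were 27.7%, 33.7% and 32.0%, below the lower bound for the members in each list. Over the other CpG-rich promoters they were 42.5%, 53.4% and 49.4%, inside the interval of the members, and the 63 members with CpG-rich promoters alone had 50.8% (38.8 to 62.7), 61.9% (49.6 to 72.9) and 50.8%. Shares were lower over the mitochondrial ribosomal protein genes, at 35.9%, 43.6% and 43.6%, with intervals that overlap those of the members. The mut list had the highest share in each of these gene groups except the mitochondrial one, where mut and somKO were equal. Thus the share of members with CTCF was that of CpG-rich promoters within counting error.

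**Figure D1:**
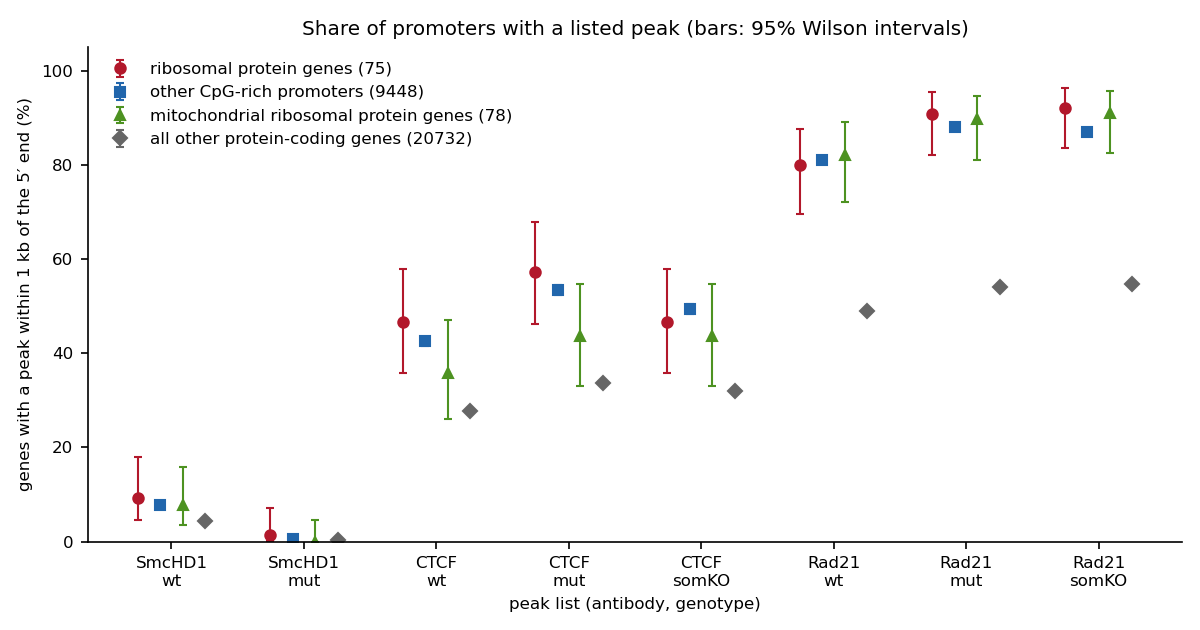
Share of genes with a listed peak within 1 kb of the 5′ end (vertical axis, percent) in each of the 8 lists (horizontal axis) for 4 gene groups, with 95% Wilson intervals. The 75 ribosomal protein genes lie above all other protein-coding genes in the CTCF and Rad21 lists and beside the other CpG-rich promoters, at 46.7% against 42.5% for CTCF in wt and 80.0% against 81.0% for Rad21 in wt.

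The rank of these peaks was higher at the members than over both larger comparisons. The 40 CTCF promoter peaks of the members in wt had a median percentile of 76.9, against 53.5 for all other genes and 50.7 for other CpG-rich promoters. In mut the medians were 68.7, 49.4 and 45.8, and in somKO 78.9, 53.1 and 50.1. Smaller gene groups lay nearer, with medians of 67.6, 45.1 and 45.2 at mitochondrial ribosomal protein genes and 69.6, 63.9 and 62.1 at 28 ribosome biogenesis factors, and the difference from these was not tested. Above the 90th percentile stood 16 of 40 member peaks in wt (40.0%, 26.3 to 55.4), 13 of 49 in mut (26.5%, 16.2 to 40.3) and 15 of 40 in somKO (37.5%, 24.2 to 53.0). For all other genes these shares were 18.2%, 16.4% and 18.4%, below the interval of the members in wt and somKO and within it in mut.

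High CTCF promoter peaks were found in both subunits. The median percentile over small subunit genes was 85.5, 70.9 and 80.2 in wt, mut and somKO, and over the large subunit and stalk 70.9, 68.7 and 76.9. Values are given here for the stalk gene Rplp0 and some large subunit genes. Rplp0, the scaffold of the ribosomal stalk, stood at percentile 99.0 in wt, 99.7 in mut and 99.4 in somKO. It was thus among the top peaks in every genotype. Rpl5, which binds 5S ribosomal RNA and with it restrains Mdm2, stood at 98.8, 97.7 and 98.9. The large subunit gene Rpl36 stood at 98.4, 99.2 and 98.3, and Rpl26 at 98.5, 94.3 and 98.3. The wt peak of Rpl26 held no core match within 1 mismatch, and those of Rplp0, Rpl5 and Rpl36 held one. Rpl37 stood at 95.6, 99.0 and 96.5, and Rpl3, whose protein lies near the peptidyl transferase centre, at 97.8, 98.0 and 97.4.

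With up to 1 mismatch the core occurred in 21 of 40 member promoter peaks in wt (52.5%, 37.5 to 67.1), in 40.8% of those in mut and in 50.0% of those in somKO. For the other genes the shares were 37.1%, 32.9% and 36.9%. The order was the other way for exact matches, at 5.00%, 4.08% and 5.00% for the members and 7.23%, 6.04% and 6.86% for the others, with only 2 member peaks behind each value. In the 300-base window at the 5′ end 6 of 75 members held the core within 1 mismatch (8.00%, 3.72 to 16.4), against 4.88% of the others. All 6 were among the 35 members with a CTCF promoter peak in wt (17.1%, 8.10 to 32.7), and none among the 40 without (0%, 0 to 8.76).

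The median midpoint of CTCF promoter peaks lay upstream of the start of these genes and that of Rad21 peaks downstream, although nearly all the CTCF peaks overlapped a Rad21 peak. The midpoints of CTCF promoter peaks had a median of -138 bp in wt, -136 bp in mut and -200 bp in somKO, where negative values are upstream, and 27 of 40, 29 of 49 and 28 of 40 were upstream. For all other genes the medians were 30.0, 96.0 and 60.5 bp, and for other CpG-rich promoters 55.0, 110 and 85.0 bp. Rad21 midpoints at the members had medians of 344, 309 and 348 bp, with 53 of 75, 63 of 82 and 58 of 80 pairs of a peak and a gene downstream. The other genes had Rad21 medians of 260, 237 and 267 bp, so that for Rad21 the downstream side was common to both. The 5′ end itself lay under a Rad21 peak in 48.3% (36.2 to 60.7), 67.6% (55.8 to 77.6) and 79.7% (68.8 to 87.5) of the members with one. Over the other genes with one the shares were 64.0%, 72.1% and 76.6%, above the interval of the members in wt and inside it in mut and somKO.

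**Figure D2:**
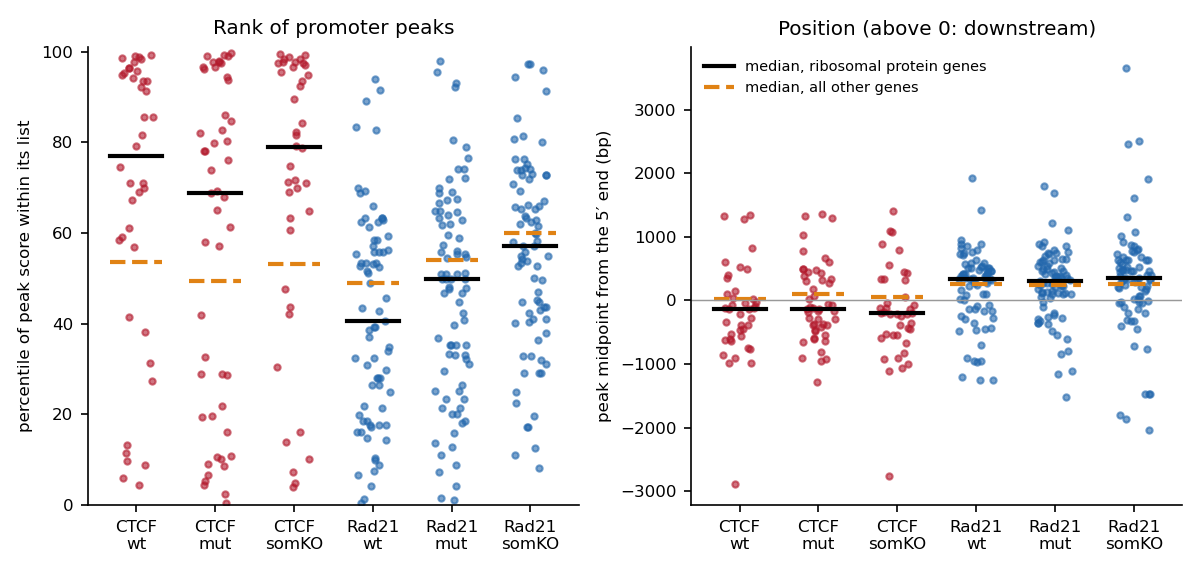
Left, percentile of each promoter peak of the members within its list (0 to 100). Right, distance of its midpoint from the 5′ end in bp, with positive values downstream. Each point is a peak at a member in the list named on the horizontal axis, black lines are medians over members and dashed lines medians over all other protein-coding genes. CTCF medians of the members lie at 76.9, 68.7 and 78.9 on the left and below 0 on the right, whereas Rad21 medians lie at 40.5, 49.8 and 57.1 and above 300 bp.

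Rad21 was listed at most ribosomal protein promoters, with peaks of middling rank. In wt 60 of 75 members had a Rad21 promoter peak (80.0%, 69.6 to 87.5), in mut 68 (90.7%, 82.0 to 95.4) and in somKO 69 (92.0%, 83.6 to 96.3). All other genes had 49.0%, 54.1% and 54.8%, and other CpG-rich promoters 81.0%, 88.1% and 87.0%. Among the 63 members with CpG-rich promoters the shares were 85.7% (75 to 92.3), 95.2% (86.9 to 98.4) and 96.8% (89.1 to 99.1), so that the CpG-rich comparison lay inside the interval in wt and mut and below it in somKO. The median percentile at the members was 40.5, 49.8 and 57.1, below that of all other genes (49.0, 54.1 and 60.0) in each genotype. Other CpG-rich promoters had 49.0, 55.3 and 61.1. The mitochondrial ribosomal protein genes had 34.0, 52.6 and 54.9, and the 28 ribosome biogenesis factors 44.5, 45.4 and 62.4. Each of these smaller groups lay below the members in some lists and above them in others, so the low rank was not particular to the members. Above the 90th percentile were 2 of 75, 4 of 82 and 5 of 79 member peaks, that is 2.67%, 4.88% and 6.33% against 7.01%, 6.55% and 9.14% over the other genes.

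High Rad21 promoter peaks in wt were long, at 3297 bp for Rpl41, 2656 bp for Rpl10a, 1607 bp for Rpl14 and 1551 bp for Rpl7, against a median of 581 bp over the wt list. Rpl7 stood at percentile 89.2, 93.1 and 91.4 in wt, mut and somKO. Rpl10a stood at 82.6, 80.5 and 85.3, and Rpl14 at 83.4, 66.7 and 81.4. The CTCF percentiles of Rpl7 were also high at 94.9, 97.4 and 97.5, as were those of Rpl10a at 96.3, 96.2 and 97.7. Rpl26 stood at 57.2, 76.6 and 95.9 for Rad21. Its somKO peak of 5667 bp also covered the place of a separate gene-body peak that stood at 95.8 in wt and 93.8 in mut, so that these promoter values are not of like peaks. Rpl7, Rpl10a, Rpl26, Rpl3 and Rpl36 were among the 6 members with the highest mean percentile over the 6 CTCF and Rad21 lists.

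Rps28, a small subunit gene that shares its start region with Ndufa7, a subunit gene of respiratory complex I, had Rad21 peaks of very different rank and extent. Its highest promoter peak stood at percentile 16.1 in wt, 98.0 in mut and 94.4 in somKO. The wt peak was 1185 bp long, whereas the mut peak covered 5942 bp and the somKO peak 3632 bp. The mut peak included the place of a gene-body peak that was separate in wt, at 55.8, and the somKO peak was centred at -1475 bp, upstream of the window, so that the promoter rank was not taken from like peaks. No CTCF promoter peak was listed in any genotype, but a gene-body CTCF peak stood at 52.9, 67.3 and 58.9. Rpl41, which encodes the smallest of these proteins, stood at 91.5 in wt, 95.4 in mut and 29.1 in somKO. In somKO a peak of 2340 bp at percentile 89.8 stopped short of the 1 kb window and was counted in the gene body, so that the lower promoter value followed from the edge of the window. At Rpl13 a somKO peak of 12803 bp, longer than the gene, stood at 97.2, against 42.8 in wt and 55.9 in mut for peaks of 296 and 1871 bp.

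Over all promoters listed in both genotypes the Rad21 rank of the members was higher in both mutants. It was higher in mut than in wt at 41 of 60 members, with a median difference of 6.13 percentile points (quartiles -1.73 to 19.9), and 5.23 points over the other genes. In somKO it was higher at 56 of 60, with a median of 14.7 points (6.53 to 21.9), and 9.56 points over the other genes. For CTCF the medians were 0.216 points in mut (34 members) and 1.42 in somKO (33 members), against 2.86 and 3.49 over the other genes. A percentile depends on what else a list holds, and the somKO lists were the longest and were merged from 4 libraries. The part that list length has in these rank differences was not tested.

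**Figure D3:**
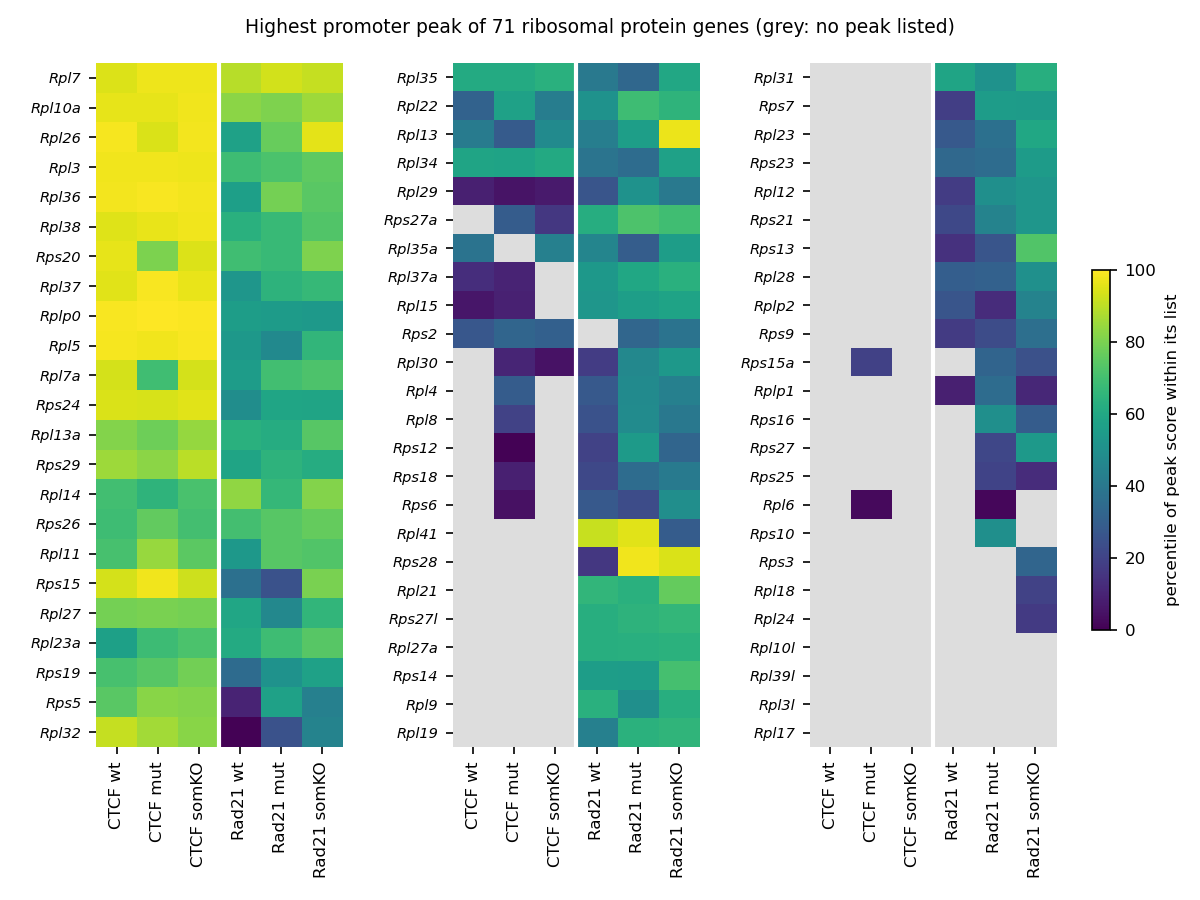
Percentile of the highest promoter peak of 71 of the 75 members (rows, in 3 panels, sorted by the number of lists and then by rank) in the 3 CTCF and 3 Rad21 lists (columns), with grey where no peak was listed. The first panel holds members listed in all 6 lists, with CTCF ranks mostly above Rad21 ranks, and the last 4 rows of the third panel, Rpl10l, Rpl39l, Rpl3l and Rpl17, have no peak.

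The promoters of 31 members were listed in all 6 CTCF and Rad21 lists (41.3%, 30.9 to 52.6), against 22.6% of the other genes. Only 4 members were in none (5.33%, 2.09 to 12.9), against 39.5%. Of these 4, Rpl3l, known from heart and skeletal muscle, and Rpl10l and Rpl39l, known from the testis, are paralogs restricted to other tissues than the one studied. The fourth, Rpl17, is a core large subunit gene on chromosome 18. The 5′ end of its gene record was not CpG-rich (45.6% GC, CpG ratio 0.219), and its gene body held 1, 1 and 2 Rad21 peaks in wt, mut and somKO. Rps27l, a paralog induced by p53, differed from the restricted paralogs, with Rad21 at percentile 62.8, 64.7 and 66.2 and no CTCF.

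By subunit, CTCF was listed at 25 of 46 large subunit and stalk promoters in wt (54.3%, 40.2 to 67.8) and at 10 of 29 small subunit promoters (34.5%, 19.9 to 52.7). In mut the shares were 60.9% and 51.7%, and in somKO 52.2% and 37.9%. For Rad21 they were 84.8% and 72.4% in wt, 87.0% and 96.6% in mut and 89.1% and 96.6% in somKO. The intervals of large and small subunit genes overlap in each list. Such overlap is no test of a difference, and a difference between subunits was not tested.

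Of the Rad21 promoter peaks at the members, 40 of 75 met a CTCF peak in wt (53.3%, 42.2 to 64.2), 51 of 82 in mut (62.2%, 51.4 to 71.9) and 40 of 79 in somKO (50.6%, 39.8 to 61.4). Over the other genes the shares were 47.8%, 54.2% and 54.3%. The wt Rad21 peaks that met CTCF had a median percentile of 53.4 and a median width of 1162 bp, and those that did not had 25.0 and 600 bp. The other genes showed the same order, with 67.7 and 1262 bp for peaks that met CTCF and 33.9 and 708 bp for the rest. In the other direction nearly all CTCF promoter peaks of the members met Rad21, 39 of 40 in wt (97.5%, 87.1 to 99.6), 49 of 49 in mut and 38 of 40 in somKO (95%, 83.5 to 98.6), against 86.1%, 91.3% and 92.3% over the other genes.

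The CTCF promoter status of 12 members differed between wt and a mutant (16.0%, 9.40 to 25.9), against 12.3% of the other genes, and the peaks involved ranked low, as they did over the other genes. Rpl35a, listed in wt and somKO at percentiles 38.2 and 43.6, was not listed in mut. Rpl15 (5.99 and 9.01) and Rpl37a (13.2 and 10.1) were listed in wt and mut but not in somKO. Rpl30 was listed in mut and somKO at 10.5 and 4.76, and Rps27a, which encodes a fusion of ubiquitin and a small subunit protein, at 29.0 and 16.1. A further 7 members were listed in mut alone (9.33%, 4.59 to 18.0, against 4.35% of the other genes), namely Rpl4 at percentile 29.0, Rpl8 at 19.7, Rps15a at 19.5, Rps18 at 8.64, Rps6 at 4.42, Rpl6 at 2.42 and Rps12 at 0.532. Rps6 is the ribosomal protein phosphorylated by S6 kinase. None of these 12 stood above the middle of a CTCF list.

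Counted as peaks, 1 of 40 wt CTCF promoter peaks of the members was lost in mut (2.50%, 0.443 to 12.9), that of Rpl35a, and 3 of 40 in somKO (7.50%, 2.58 to 19.9), those of Rpl15, Rpl37a and a further, low-ranked peak of Rpl3. Over the other genes 7.49% and 5.17% were lost. Gained CTCF peaks were 12 of 49 in mut (24.5%, 14.6 to 38.1), against 25.2%, and 2 of 40 in somKO (5.00%, 1.38 to 16.5), against 18.7%, which lies above the interval of the members. With lists cut to equal length the gain was 0 of 34 (0%, 0 to 10.2) against 7.56%, inside the interval. The gained CTCF peaks of the members in mut had a median percentile of 10.7 and those also met in wt 79.9, and over the other genes 11.6 and 64.2.

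For Rad21, 1 of 75 wt promoter peaks was lost in mut (1.33%, 0.236 to 7.17), at Rpl35a, and 1 of 75 in somKO, at Rplp1, against 6.90% and 2.60% over the other genes. Gained Rad21 peaks were 13 of 82 in mut (15.9%, 9.51 to 25.3), against 18.0%, and 14 of 79 in somKO (17.7%, 10.9 to 27.6), against 16.9%. Both mut and somKO were set against the same wt list. The Rad21 losses rested on counting any overlap of 1 bp. With an overlap of 50% of both peaks 36.0% were lost in mut and 54.7% in somKO, against 32.7% and 36.3% over the other genes, so that the members then lay above the others.

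**Figure D4:**
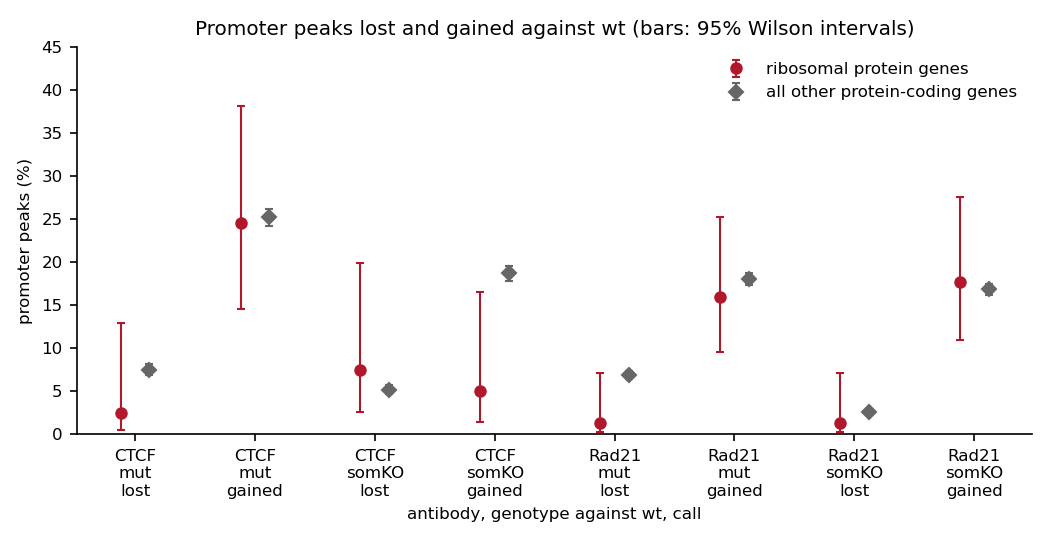
Share of wt promoter peaks lost, and of mut or somKO promoter peaks gained (vertical axis, percent), for CTCF and Rad21, with 95% Wilson intervals. Members and other genes lie close together except for CTCF gains in somKO, at 5.00% against 18.7%, which became 0% against 7.56% with lists cut to equal length.

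The 11 members whose Rad21 promoter status differed were listed in a mutant and not in wt (14.7%, 8.39 to 24.4), against 9.56% of the other genes, which lies inside the interval. Rps15a (32.1 in mut and 24.9 in somKO), Rps16 (49.8 and 29.1), Rps2 (33.1 and 37.9), Rps25 (20.0 and 12.5) and Rps27 (21.3 and 53.9) were among the 6 listed in both mutants. That is 8.00% of the members (3.72 to 16.4), against 4.32% of the other genes, inside the interval. All 6 were small subunit genes, which were less often listed in wt, at 21 of 29 against 39 of 46 large subunit and stalk genes. More of them could thus gain a listing. Rpl6 (1.65) and Rps10 (49.8) were listed in mut alone, and Rpl18 (19.7), Rpl24 (17.1) and Rps3 (32.8), whose protein also has roles in DNA repair, in somKO alone. At Rps10, Rps2 and Rpl18 the RefSeq start lies 1425, 1947 and 2614 bp downstream of the gene record's 5′ end, so that the window used here did not centre on it.

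SmcHD1 peaks were few at these genes. In wt 7 of 75 members had a promoter peak (9.33%, 4.59 to 18.0), against 4.31% of all other genes and 7.73% of other CpG-rich promoters. In mut, where the protein is absent, 1 member had a peak (1.33%, 0.236 to 7.17), against 0.323%. The wt peaks were short, from 186 to 483 bp, and stood at percentile 67.0 at Rps20, 60.0 at Rpl37, 56.3 at Rpl9 and at Rps29, 49.0 at Rpl5, 37.6 at Rpl23a and 23.2 at Rps19. Rps19 and Rpl5 are genes of Diamond-Blackfan anaemia.

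The Rps29 peak differed from the other SmcHD1 peaks. It was the only member peak also listed in mut, at percentile 25.8, and 83.1% of the 50-base words in the wt peak occurred elsewhere in the genome, against 0% to 5.38% in the other 6. All 7 wt peaks met a Rad21 peak of wt and 5 met a CTCF peak of wt (71.4%, 35.9 to 91.8), against 73.5% and 38.7% of the SmcHD1 promoter peaks of other genes. No gene-body SmcHD1 peak was listed at a member in wt or mut (0%, 0 to 4.87). The shares over the other genes, 3.15% in wt and 0.270% in mut, lie inside this interval.

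Gene-body peaks were rarer per gene at the members than over all other genes, and denser per kb. CTCF lay in the body of 16 members in wt (21.3%, 13.6 to 31.9), 16 in mut (21.3%) and 18 in somKO (24.0%, 15.8 to 34.8), against 49.3%, 48.6% and 52.2% of the other genes. Rad21 lay in the body of 22 members in wt (29.3%, 20.2 to 40.4), 19 in mut (25.3%, 16.9 to 36.2) and 27 in somKO (36.0%, 26.1 to 47.3), against 45.7%, 45.4% and 51.3%. Per kb of gene body the members had 0.0833, 0.0984 and 0.102 CTCF peaks in wt, mut and somKO, against 0.0277, 0.0264 and 0.0319 for the other genes. For Rad21 they had 0.133, 0.117 and 0.178 peaks per kb, against 0.0284, 0.0284 and 0.0393. The density was not particular to the members. At 5 translation elongation factors it was higher, at 0.167, 0.167 and 0.214 for CTCF and 0.190, 0.190 and 0.214 for Rad21. At the mitochondrial ribosomal protein genes it was lower, at 0.0552, 0.0434 and 0.0611 for CTCF and 0.0572, 0.0552 and 0.0838 for Rad21. Initiation and ribosome biogenesis factors were also below the members in each list.

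Length bears on both counts, so the 1801 other genes with lengths between the quartiles of the members (2514 to 4792 bp) were also counted, a comparison chosen after the data had been seen. Of these 12.8%, 12.9% and 13.3% had a CTCF gene-body peak and 11.9%, 12.4% and 13.8% a Rad21 gene-body peak, with 0.0531, 0.0552 and 0.0543 CTCF peaks and 0.0498, 0.0510 and 0.0597 Rad21 peaks per kb. The lower bound of the members' share exceeded these values in each of the 6 lists, though for CTCF in wt and mut it was 13.6%, close to the 12.8% and 12.9% of the other genes. The members were not restricted to these lengths and ran from 828 to 31449 bp, so that unlike lengths remain in this comparison. Whether length accounts for the difference was not tested.

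**Figure D5:**
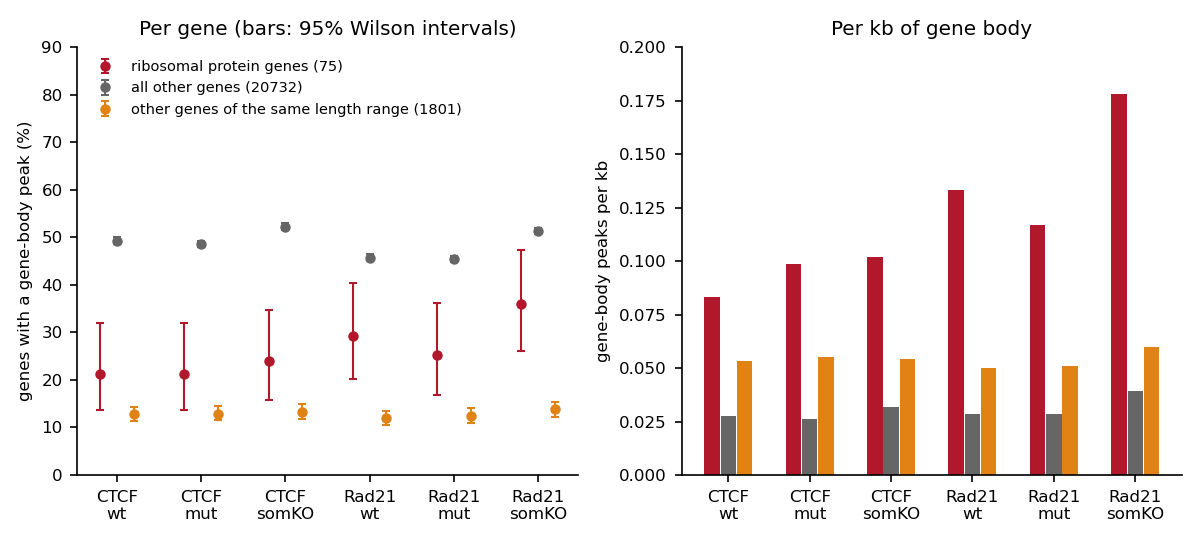
Left, share of genes with a gene-body peak (percent, 95% Wilson intervals). Right, gene-body peaks per kb. Bars and points show the 75 members of any length, all other protein-coding genes and 1801 other genes in the 6 CTCF and Rad21 lists. The 1801 genes, labelled as of the same length range, lie between the length quartiles of the members. The members lie below all other genes on the left, at 29.3% against 45.7% for Rad21 in wt, and above both comparisons on the right.

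The strongest gene-body peak was the CTCF peak of Rpl3, at percentile 99.3 in wt, 99.8 in mut and 98.8 in somKO, which lay 3241 bp downstream of the gene record's 5′ end in wt. In Rps14, of which a copy is deleted in the 5q- syndrome, a Rad21 gene-body peak stood at 98.1, 98.2 and 99.1. At Rpl19 a Rad21 peak over the 3′ end stood at 98.2, 94.9 and 98.8. Rpl22 had a CTCF peak at 95.6, 97.6 and 94.6. Rps19 had a CTCF peak at 97.7 in wt, centred beyond its 3′ end, which met a CTCF peak in both other genotypes. Of the CTCF gene-body peaks, 9 of 22 in wt, 7 of 26 in mut and 10 of 27 in somKO had their midpoint within 1 kb of the 3′ end. This was not counted for the other genes. In genes as short as the members 1 kb is a large part of the body, so that no preference for the 3′ end can be read from it. The median percentile of Rad21 gene-body peaks was 28.0, 26.5 and 48.0, so that the strong ones were exceptions.

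Related genes outside the symbol rule were listed in varying shares, to be read against the 27.7%, 33.7% and 32.0% for CTCF and 49.0%, 54.1% and 54.8% for Rad21 over all other genes. Of 8 further ribosomal genes, CTCF was listed at the promoters of 2, 4 and 2 in wt, mut and somKO, and Rad21 at 6, 7 and 7. Rps3a1 stood at CTCF percentiles 93.1, 97.4 and 96.2 and Rpl7l1 at 83.8, 87.4 and 85.9. Of the 28 ribosome biogenesis factors on these chromosomes, CTCF was listed at 10, 17 and 14 and Rad21 at 26, 27 and 27. Of the 52 initiation factors, CTCF was listed at 15 (28.8%, 18.3 to 42.3), 24 and 22 and Rad21 at 43, 47 and 45. Of the 5 elongation factors, CTCF was listed at 0, 1 and 0 and Rad21 at 3, 5 and 4. Of the 14 subunits of RNA polymerases I and III, CTCF was listed at 5, 6 and 5 and Rad21 at 14, 12 and 14.

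On the X chromosome, outside the rule, SmcHD1 was listed at none of the 4 ribosomal protein promoters (Rpl10, Rpl36a, Rpl39 and Rps4x) in wt or mut. CTCF was listed at 2, 4 and 4 of them in wt, mut and somKO, and Rad21 at 2, 3 and 4. Rps4x stood at CTCF percentiles 82.0, 80.2 and 86.9 and Rpl36a at 83.0, 86.4 and 87.2. Rpl10 and Rpl39 had CTCF peaks in mut (29.0 and 20.9) and somKO (11.6 and 16.5) and none in wt. The shares over all X-linked genes were not counted. These differences between genotypes therefore cannot be read as a trait of the 4 genes.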

How the data were processed

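ChIP-seq was performed by the authors on clonal MEFs with antibodies to SmcHD1 and Rad21, after EGS and formaldehyde crosslinking, and to CTCF, after formaldehyde alone. Reads were aligned with Bowtie2 to mm10 with strain variants masked, replicates were merged, and peaks were called with MACS2 against input on reads of both alleles, each list being deposited with a score per peak that never fell below 13. The score was treated as a rank. The peak lists hold no counts, so depth is unknown.

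Peaks were set against GENCODE M21 genes with python 3.11.15, numpy 2.4.6, pandas 2.3.3 and scipy 1.17.1, as promoter (1 kb either side of the 5′ end, overlap of at least 1 bp) or gene body. Lost and gained peaks had no overlap of 1 bp in the other list. Shares carry 95% Wilson intervals, and no test was made because each group has 1 merged list. Functions were tested on simulated peaks. The RefSeq sequences and GRCm38.p6 genome gave motifs and repeated 50-base words.

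Members, lists and the naming rule were chosen with earlier results of these data known. Named were all members with an SmcHD1 peak, the 5 highest promoter peaks per CTCF or Rad21 list, the 6 members with the highest mean percentile among those in all 6 lists, all members whose promoter status differed from wt, the 6 highest gene-body peaks and the 4 tissue-restricted or induced paralogs. A few members that this rule names are counted but not reported by name. Alternatives were a score of at least 50, a window of 500 bp, a midpoint rule, lists of one antibody cut to equal length, other transcript starts, members without a neighbouring start or a repeated promoter, and an overlap of 50% of both peaks.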

Additional observations from a re-analysis of the deposited data

Results flagged for a closer look

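For 4 measures of the ribosomal protein genes the mut and somKO lists moved to opposite sides of the wt list. In each the difference between mut and somKO was not tested, because every group has 1 list. The Rad21 gene-body share was 29.3%, 25.3% and 36.0% in wt, mut and somKO, so that somKO exceeded mut by 10.7 points, and the Rad21 gene-body peaks per kb were 0.133, 0.117 and 0.178, a difference of 0.0610. Over all other genes the Rad21 gene-body share moved the same way, at 45.7%, 45.4% and 51.3%. The median percentile of CTCF promoter peaks was 76.9, 68.7 and 78.9, a difference of 10.2, and the share of Rad21 promoter peaks that met a CTCF peak was 53.3%, 62.2% and 50.6%, a difference of -11.6 points.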

How the results depend on the processing

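Of 106 values recomputed under an alternative, 87 stayed within the 95% interval of the value reported, and the sign of the difference between the members and the other genes changed in 8. With a score of at least 50 the promoter share of the members was 2.67% for SmcHD1 in wt, 0% in mut (below the others, at 0.198%), 62.7% for Rad21 in wt and 81.3% in mut, and the Rad21 gene-body share in mut was 16.0%. Counting midpoints in the window gave 81.3% for Rad21 in somKO. The CTCF promoter shares stayed within their intervals under every alternative run, and the members stayed above the other genes in each. Lost and gained peaks were less stable. With an overlap of 50% of both peaks, 17.5% of CTCF peaks were lost in mut, 36.0% and 54.7% of Rad21 peaks were lost in mut and somKO (others 32.7% and 36.3%) and 40.2% and 58.2% gained (others 39.7% and 41.0%), and the share of Rad21 peaks that met CTCF fell to 20.0%, 23.2% and 15.2%. With a score of at least 50 in both lists, Rad21 losses were 9.26% in mut (others 7.39%) and 0% in somKO and gains 24.6% in mut (others 20.3%) and 30.1% in somKO (others 20.4%). CTCF losses in somKO, above the others as reported, were below them at 17.5% against 19.2% under the overlap of 50% and 2.63% against 3.34% under the score of 50. With lists cut to equal length (57798 CTCF and 66031 Rad21 peaks), gains in somKO were 0% for CTCF, against 7.56% over the other genes, and 9.86% for Rad21, which list length by construction lowers. The other causes were not tested. No paired analysis was possible because each list was merged from its replicates, and for the same reason no replicate could be left out.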
